A study of Mus musculus with 2 samples.

Results

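The oxidative phosphorylation subunits were examined in a single-cell RNA sequencing experiment on pancreatic islets of mice. Members were chosen by gene symbol alone, as the protein subunits of complexes I to V of the respiratory chain, by a rule that uses no expression value. Of the 22383 features counted, 101 were members. The nuclear genome encodes 88 of them, namely 37 of complex I, 4 of complex II, 8 of complex III, 21 of complex IV and 18 of complex V (ATP synthase). The other 13 are the protein genes of mitochondrial DNA (mtDNA), whose symbols begin with mt-. The acyl carrier protein Ndufab1, cytochrome c1 (Cyc1) and cytochrome c (Cycs) carry symbols outside the choice and are given with the other genes of the pathway.

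The experiment asked what islet cells express when the transcriptional co-factors TBL1X and TBL1XR1 are deleted in β-cells. TBL/RβKO mice carried loxP-flanked Tbl1x and Tbl1xr1 together with a Cre recombinase inserted into the endogenous Ins1 gene, so that deletion was directed to insulin-producing cells. Control mice were Cre-negative littermates, labelled wildtype, and both groups were 5 weeks old on a C57BL/6N background. In each group 150 islets from 4 mice were pooled, kept overnight at 37 °C, dissociated and sequenced as 1 library. No mouse can be told from another within a pool, so no value below has a replicate behind it, no p-value is given, and every interval covers counting error only. A difference between the libraries cannot be told apart from a difference between the pools of mice or the preparations.

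Complexes I to IV pass electrons from NADH and succinate to oxygen and pump protons across the inner mitochondrial membrane, and complex V uses the returning protons to make ATP. Most subunits are imported products of nuclear genes, while a few core subunits of complexes I, III, IV and V are made inside the organelle from mtDNA. In β-cells the ATP made from glucose closes ATP-sensitive potassium channels, and the calcium entry that follows releases insulin. Several complex IV subunits exist as tissue-restricted or inducible isoforms that take the place of a widely expressed partner.

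The control library held 7067 barcodes and 241434108 unique molecular identifiers (UMIs, 1 for each captured RNA molecule), and the library labelled TBL/RβKO held 5833 barcodes and 185062206 UMIs. Cells with over 2500 detected genes and under 10% mitochondrial UMIs were kept, which left 4747 and 4179. Each kept cell was put in a class by its most abundant islet hormone RNA. The insulin class, which stands for β-cells, held 2877 control cells and 1338 cells of the library labelled TBL/RβKO, the glucagon class (α-cells) 1284 and 1546, the somatostatin class (δ-cells) 223 and 374, and the Ppy class 259 and 495. Levels are given as CPM, the UMIs of a gene per 1000000 UMIs of the class, not counting those of the 5 hormone genes Ins1, Ins2, Gcg, Sst and Ppy. UMIs mark transcript 3′ ends, so a level was not divided by gene length.

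The targeted genes did not follow the label. In the insulin class Tbl1x was at 197 CPM in control cells against 509 CPM in the library labelled TBL/RβKO, and Tbl1xr1 at 40.7 and 186 CPM. The position of the deleted part was not given in the sources used here, and 3′ UMIs from outside it check nothing. Cre UMIs numbered 0 in every control class and 3108 in the insulin class of the library labelled TBL/RβKO, where 274 cells, or 20.5%, had at least 1. The β-cell markers Mafa (941 and 124 CPM) and Slc2a2 (641 and 80.2 CPM) were lower in that class of the library labelled TBL/RβKO, and the 6 β-cell markers summed to 3364 and 1109 CPM. Pyy, a peptide hormone of PP cells, was at 7739 and 47875 CPM in the insulin class, and the 5 α-cell markers summed to 1126 and 2686 CPM. Marker sums of other cell types in the insulin class were 261 and 748 CPM for ductal cells, 143 and 33.9 CPM for macrophages, 29.4 and 16.6 CPM for endothelial cells and 3.58 and 31.3 CPM for stromal cells. A second hormone reached the class cutoff in 16.3% of control and 60.8% of TBL/RβKO-labelled insulin-class cells. The Ppy class rested on Pyy among its markers. The part of these mixed hormone signals in the results below was not tested beyond the values given beside them.

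The genomic positions of the subunits the results turn on were taken from GENCODE M39 on the mouse GRCm39 assembly, in which all 101 identifiers were found as protein-coding genes. Cox6a2 (ENSMUSG00000030785) lies on chromosome 7 at 127804607 to 127805559 on the minus strand, inside Itgad on the opposite strand. Ndufc2 (ENSMUSG00000030647) lies on the same chromosome at 97049210 to 97057022 on the plus strand. Cox6a1 (ENSMUSG00000041697) occupies 115483701 to 115487050 of chromosome 5 on the minus strand. The mtDNA gene mt-Nd6, at 13552 to 14070, is the only member on the minus strand of mtDNA, and its end overlaps that of mt-Nd5 (11742 to 13565). In the insulin class the neighbour Itgad was at 0.535 and 0.431 CPM.

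Promoter letters are shown for the member that rose most between the insulin classes and for the widely expressed partner of the member that fell most, because subunit promoters share short recognition sequences of nuclear respiratory factors. Both are the 120 bases before the GENCODE gene start, taken from RefSeq promoters (GRCm38.p6) and placed on GRCm39 by exact match, at chr7:97049090-97049209 on the plus strand for Ndufc2 and at chr5:115487051-115487170 on the minus strand for Cox6a1. Capitals mark a match to the core letters of nuclear respiratory factor 1 (NRF1).
Ndufc2: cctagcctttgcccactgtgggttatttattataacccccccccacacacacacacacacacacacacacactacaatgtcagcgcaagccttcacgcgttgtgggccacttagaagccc
Cox6a1: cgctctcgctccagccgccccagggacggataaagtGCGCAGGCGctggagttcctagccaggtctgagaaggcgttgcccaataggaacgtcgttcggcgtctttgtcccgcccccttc
The Ndufc2 stretch holds no capitals, and its window of 250 bases before to 50 after the start matched none of the 3 motifs searched on both strands, which were GCGCANGCG for NRF1, CCGGAAG for ETS factors and AAGATGGCG for YY1. The Cox6a1 window held 4 matches, and those of the NRF1 letters from 161 and 162 bases before the start overlap on opposite strands. These windows are set on the RefSeq start, which for Cox6a1 lies downstream of the GENCODE start at which the printed stretch ends. RefSeq promoters were found for 69 of the 88 nuclear members, with 74 promoters in all, and the table had no entry for Cox6a2. The NRF1 letters occurred in 21 of the 74 (28.4%) against 6.25% of all 32851 promoters in the table, the ETS letters in 17 (23.0%) against 8.86%, and the YY1 letters in 7 (9.46%) against 1.40%. Member promoters were also richer in GC (median 60.8% against 54.2% over the 120 bases before the start) and held more CpG (median 9 against 3), and the part of base composition in these shares was not tested. A match of letters is a description and not a binding site.

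In the insulin class the nuclear members together took 2.14% of UMIs other than hormones in control cells, against 1.98% in the library labelled TBL/RβKO. The lower pooled share did not hold among cells of like insulin content, where the nuclear share was higher in the library labelled TBL/RβKO in 3 of 4 bands (values with the bands below). The median cell was at 2.06% (quartiles 1.70 and 2.45%) and 1.92% (1.54 and 2.32%), so the cells of the libraries overlapped over most of their range. The mtDNA members took 5.55% and 5.71%, with a median cell at 5.29% (4.14 and 7.0%) and 5.58% (4.58 and 7.04%). Among the complexes, the nuclear subunits of complex IV (cytochrome c oxidase) took 0.522% and 0.426%, those of complex I 0.725% and 0.714%, and those of complex V 0.630% and 0.583%. Complex III stood at 0.218% in both libraries.

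The glucagon class held less of both sets in the control and the libraries stood farther apart, with nuclear members at 1.82% and 1.60% and mtDNA members at 3.93% and 4.65% of UMIs. In the somatostatin class the nuclear share was 2.02% and 1.96% and the mtDNA share 3.50% and 3.64%. The Ppy class had the widest gap in mtDNA, at 3.12% in control cells against 4.57% in the library labelled TBL/RβKO, beside nuclear shares of 1.83% and 1.71%. Divided by the nuclear UMIs, the mtDNA UMIs came to 2.59 and 2.88 in the insulin class, 2.16 and 2.91 in the glucagon class, 1.73 and 1.86 in the somatostatin class and 1.71 and 2.68 in the Ppy class. This ratio was higher in the library labelled TBL/RβKO in all 4 classes, and the plot by class shows the shares behind it. The mtDNA genes set the 10% filter on cells themselves, and it took out 7.76% and 3.95% of insulin-class cells, 3.75% and 8.63% of glucagon-class cells, 1.76% and 3.86% of somatostatin-class cells and 0.766% and 4.81% of Ppy-class cells.

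**Figure D1:**
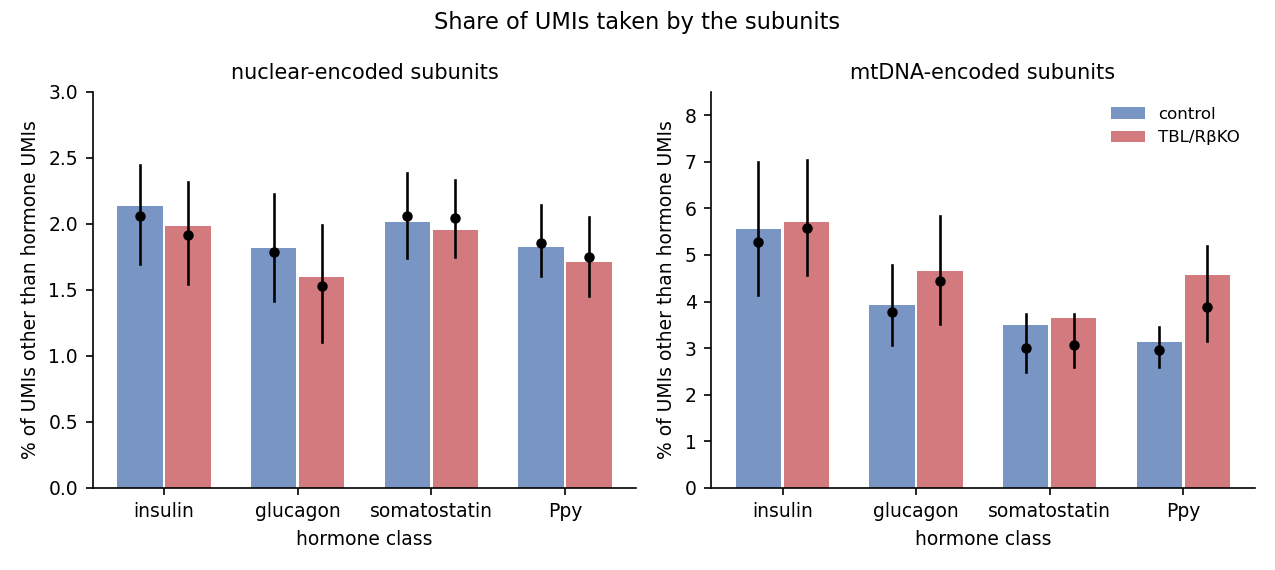
Share of UMIs other than hormones (in %) taken by the nuclear (left) and mtDNA (right) members in each hormone class; bars give the share of the summed UMIs of the class, points the median cell and lines the quartiles over cells, in blue for the control and red for the library labelled TBL/RβKO. Nuclear shares over whole classes were lower in the library labelled TBL/RβKO in all 4 (2.14 and 1.98% in the insulin class, where bands of like insulin content differ), and mtDNA shares higher in all 4 (3.12 and 4.57% in the Ppy class).

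For the comparison of single members between the libraries, a log2 ratio of the level in the library labelled TBL/RβKO over that in the control was taken relative to the median of all genes tested in the class, and a member was said to rise or fall when it lay at least 0.5 from that median, a fold of 1.41. That median was -0.19 in the insulin class and would be 0.31 with hormone UMIs counted in the denominator, which is why ratios are given relative to it, and it lay between -0.04 and 0.01 in the other classes. Genes averaging 10 CPM or more over both libraries were tested. In the insulin class 91 members passed this filter. Of these, 6 rose, where 11.2% of all 9044 genes tested did, and 2 fell, where 7.42% of all genes did. The share of members that moved in the class as a whole was thus below that of all genes in both directions. That statement does not extend to the bands of like insulin content described below. The share of all genes that moved was not taken there, so members that moved are not counted by band, and medians are given instead. The 78 nuclear members tested had a median of 0.04 and the 13 mtDNA members a median of 0.10, while the quartiles of all genes were -0.20 and 0.22. The nuclear median near 0 belongs to the class as a whole, since within bands of like insulin content it lay between 0.17 and 0.45, and it came to 0.21 in cells with at least 30% insulin and to -0.02 with no filter on level. Medians of the nuclear members by complex ran from -0.05 for complex IV (13 tested) to 0.12 for complex III (8 tested), with 0.04 for complex I (36), 0.06 for complex II (4) and 0.04 for complex V (17).

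**Figure D2:**
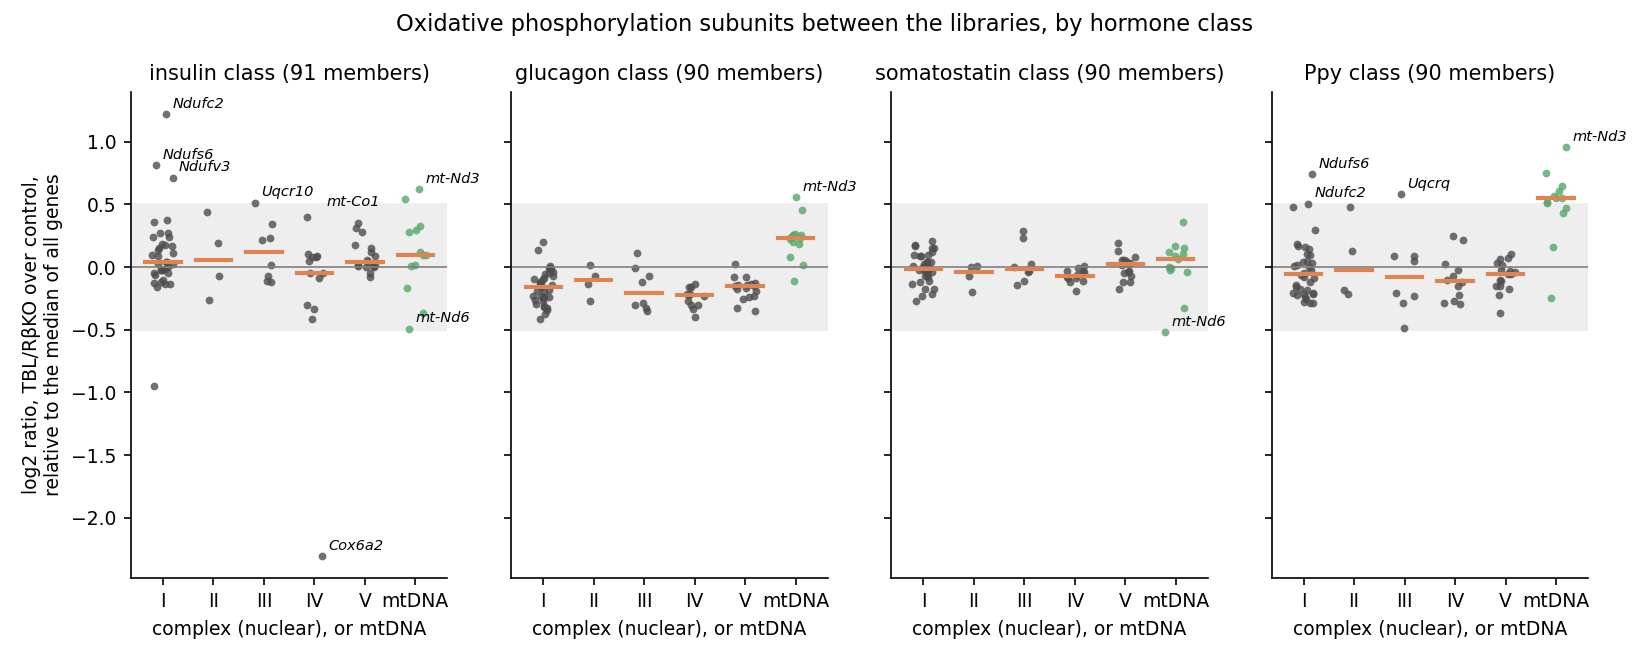
Relative log2 ratio of each tested member (library labelled TBL/RβKO over control, less the median of all genes tested in the class) by complex for the nuclear members and for mtDNA (green), 1 panel per hormone class; orange lines are medians and the shaded band marks ratios within 0.5. Cox6a2 (-2.30) is the lowest and Ndufc2 (1.22) the highest point in the insulin class, and 9 of the 13 mtDNA members lie above the band in the Ppy class, where the highest is labelled.

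Cox6a2, the isoform of complex IV subunit 6A typical of heart and skeletal muscle, fell most of all members in the insulin class. It was at 110 CPM in the control (95% interval 108 to 112, 9859 UMIs) and at 19.5 CPM in the library labelled TBL/RβKO (18.5 to 20.6, 1359 UMIs), a relative log2 ratio of -2.30 (-2.38 to -2.22), which is 4.93-fold lower. In the other hormone classes of both libraries Cox6a2 stayed between 1.03 and 2.03 CPM. Among cells with no hormone it was at 13.3 and 15.1 CPM in macrophage-led cells (11 and 15 UMIs), at 16.3 CPM in B-cell-led cells (20 UMIs; the control had 0 such cells), and at 24.6 and 6.78 CPM in cells led by no marker list (5 and 16 UMIs). Of the hormone classes the insulin class thus held the highest level in both libraries, and the level there in the library labelled TBL/RβKO lay between that of control β-cells and that of the other hormone classes. A Cox6a2 UMI was found in 60.7% and 24.1% of insulin-class cells, and in 3.19% and 2.33% of glucagon-class cells, the level in a class that should lack it, and the part of free RNA and of mixed droplets in those was not tested. The median depth of insulin-class cells was 53346 and 67897 UMIs, and with each cell thinned to 10000 UMIs other than hormones the shares came to 44.6% and 12% (148 and 15 shallower cells left out). Without cells that carried a second hormone the ratio was -1.44, with cells of fewer than 6000 genes it was -1.59, and among cells with at least 30% insulin UMIs it was -1.25.

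The widely expressed partner Cox6a1 was at 233 and 192 CPM (-0.09), within the threshold. The remaining isoform pairs of complex IV were measured almost wholly by their common form. Cox4i1 was at 484 and 449 CPM (0.08) and its hypoxia-associated alternative Cox4i2 at 0.268 and 0.244 CPM. Cox6b1 was at 381 and 344 CPM (0.04) against 0.925 and 0.330 CPM for Cox6b2, which is typical of testis. Cox7a2 was at 435 and 409 CPM (0.10), against 1.49 and 1.11 CPM for the muscle form Cox7a1. Cox7a2l, a relative of Cox7a2 that joins complexes III and IV in supercomplexes, was at 420 and 298 CPM (-0.30). Cox7b was at 254 and 293 CPM (0.40) and Cox7b2 at 0.245 and 0.302 CPM. Ndufa4, a subunit first assigned to complex I and now to complex IV, was at 473 and 441 CPM (0.09) and its relative Ndufa4l2 at 1.30 and 1.09 CPM. Cox6a2 was the only isoform restricted to particular tissues that passed the filter in these cells.

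Cox8a, the common form of subunit 8, was at 968 and 635 CPM (-0.42, -0.43 to -0.40), short of the threshold. Its muscle form Cox8b had 1 UMI in each insulin class, and Cox8c had 0 in both, which allows at most 3 UMIs, or 0.0334 and 0.0431 CPM. Cox6c was at 524 and 364 CPM (-0.33). With Cox6a2, these 2 subunits account for part of the lower complex IV share of the whole class in the library labelled TBL/RβKO. That gap was smaller or absent within the bands of like insulin content described below. From the lowest band to the highest the complex IV share was 0.357, 0.473, 0.477 and 0.573% in the control. In the library labelled TBL/RβKO it was 0.360, 0.408, 0.471 and 0.553%. The 10 members below the filter in the insulin class were Cox4i2, Cox6b2, Cox7a1, Cox7b2, Cox8b, Cox8c, Ndufa4l2, Cox5b-ps, Ndufb11b and a second Atp5o identifier, and none exceeded 6.96 CPM in any hormone class.

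**Figure D3:**
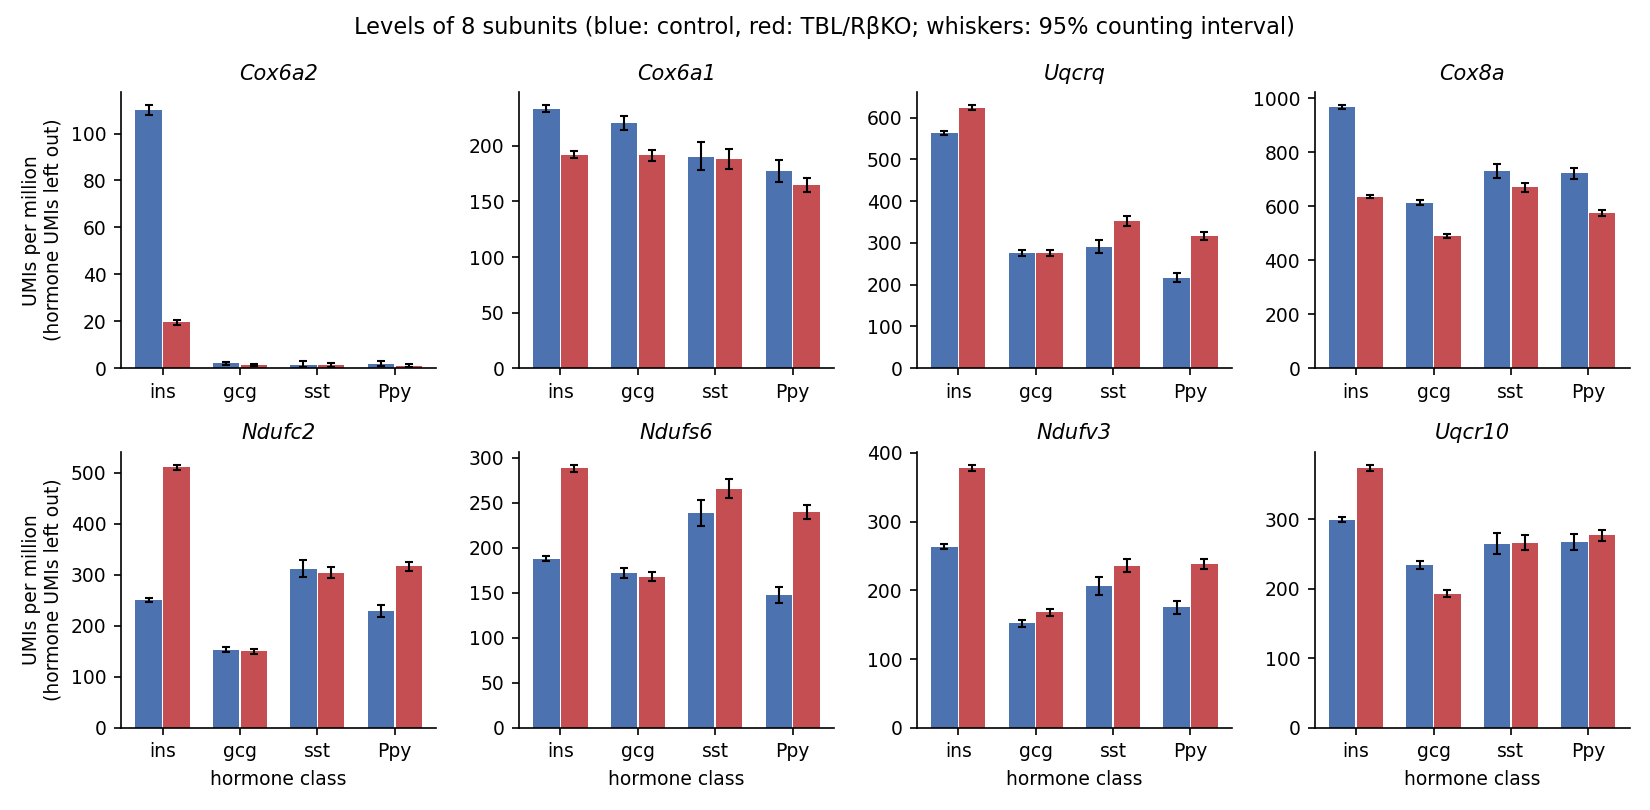
Levels in CPM of 8 members in the 4 hormone classes, as bars from 0 with an axis of their own for each member, blue for the control and red for the library labelled TBL/RβKO, with 95% Poisson intervals of the summed UMIs as whiskers. Cox6a2 was measured at 110 and 19.5 CPM in the insulin class and at no more than 2.03 CPM in the other hormone classes, and Ndufc2 stood at 250 and 510 CPM in the insulin class against 153 and 150 CPM in the glucagon class.

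Complex I (NADH dehydrogenase) held 3 of the members that rose. Ndufc2, an accessory subunit of the membrane arm, rose from 250 CPM (247 to 254) to 510 CPM (505 to 516) in the insulin class, a ratio of 1.22 (1.20 to 1.24) or 2.33-fold. It was at 153 and 150 CPM in the glucagon class (-0.04) and 312 and 304 CPM in the somatostatin class (-0.02), whereas in the Ppy class it rose from 228 to 316 CPM (0.51), just past the threshold. The call in the Ppy class ended in 6 of 10 alternatives, with a lowest value of 0.15. Ndufs6, an accessory subunit needed to complete the NADH-oxidising module, rose from 188 to 288 CPM in the insulin class (0.81, 0.78 to 0.84) and from 147 to 240 CPM in the Ppy class (0.74). Ndufv3, an accessory subunit of the same module, rose from 264 to 378 CPM in the insulin class (0.71, 0.69 to 0.74). These 3 genes kept a ratio of at least 0.5 in the insulin class under all 11 alternative settings, with lowest values of 1.14, 0.61 and 0.65. Ndufs6 overlaps the start of Mrpl36 on the opposite strand, and Mrpl36 was at 86.7 and 76.1 CPM, a relative ratio of 0.00. Among the nuclear subunits of complex I within 0.5 of the median, the highest were Ndufa12 (132 and 149 CPM, 0.37) and Ndufa1 (307 and 346 CPM, 0.36).

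Complex II (succinate dehydrogenase), the link to the citric acid cycle, showed no member past the threshold in the class as a whole. Its flavoprotein Sdha was at 154 and 128 CPM (-0.07) and its iron-sulphur protein Sdhb at 108 and 79.2 CPM (-0.26). The membrane anchors stood above the median, Sdhc at 107 CPM in both libraries (0.19) and Sdhd at 71.6 and 85.1 CPM (0.44). In complex III (cytochrome bc1) the small subunit Uqcr10 rose from 300 to 374 CPM (0.51, 0.49 to 0.54). This call depended on the setting, since 4 of 11 alternatives put it below 0.5, down to 0.45. Uqcrq, another small subunit of complex III, was at 563 and 624 CPM (0.34), and the Rieske iron-sulphur protein Uqcrfs1 at 122 and 102 CPM (-0.07).

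ATP synthase was the most even of the complexes, with no member past the threshold and a range from -0.08 to 0.35 over the 17 subunits tested. The catalytic β subunit Atp5b was at 380 and 337 CPM (0.02) and the α subunit Atp5a1 at 365 and 319 CPM (0.00). The 3 genes for the proton-carrying c subunit, which encode the same mature protein, were at 509 and 450 CPM for Atp5g1 (0.01), 481 and 400 CPM for Atp5g2 (-0.08) and 235 and 232 CPM for Atp5g3 (0.18). The γ subunit Atp5c1, the rotating stalk, was highest at 250 and 280 CPM (0.35).

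The 13 mtDNA members did not move as a block in the insulin class, although most are transcribed together as long precursors. The complex I gene mt-Nd3 rose from 779 to 1048 CPM (0.62, 0.61 to 0.64) and the complex IV gene mt-Co1 from 10021 to 12753 CPM (0.54). The call on mt-Co1 ended in 4 of 11 alternatives, with a lowest value of 0.46. The other complex IV genes mt-Co2 (8483 and 9307 CPM, 0.33) and mt-Co3 (9378 and 10097 CPM, 0.30) were also above the median. In complex V, mt-Atp6 was at 8667 and 7646 CPM (0.01) and mt-Atp8 at 125 and 119 CPM (0.12), and in complex III mt-Cytb was at 6913 and 6131 CPM (0.02).

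The complex I genes of mtDNA spread over more than a whole log2 unit. Above the median stood mt-Nd1 (2392 and 2547 CPM, 0.28), mt-Nd4 (3909 and 3656 CPM, 0.10) and mt-Nd5 (986 and 920 CPM, 0.09). Below it stood mt-Nd2 (3192 and 2490 CPM, -0.17), mt-Nd4l (590 and 400 CPM, -0.37) and mt-Nd6 (46.1 and 28.7 CPM, -0.49, -0.57 to -0.41). Of these, mt-Nd4l overlaps mt-Nd4 on the same strand, so UMIs of the pair may be split by the counting, and mt-Nd6 comes from the other strand of mtDNA. Among cells with over 2500 genes, 303 control cells and 319 cells of the library labelled TBL/RβKO were left out for 10% or more mitochondrial UMIs. Without that limit the median of the 13 was 0.06 in the insulin class.

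Insulin-class cells differed in how much insulin they held, so the same values were taken within bands of the insulin share of a cell's UMIs. The lowest band, from 1 to 10%, held 163 control cells and 243 cells of the library labelled TBL/RβKO, the band from 10 to 30% 152 and 574, that from 30 to 50% 1030 and 380, and that from 50% upwards 1532 and 141. The libraries therefore filled opposite ends of the range. From the lowest to the highest band the nuclear share was 1.36, 1.96, 1.97 and 2.34% in the control, against 1.66, 1.91, 2.20 and 2.46% in the library labelled TBL/RβKO. It was higher in the latter in all bands but that from 10 to 30%. The nuclear median relative ratio was 0.45, 0.17, 0.33 and 0.21, and the mtDNA median 0.58, 0.60, 0.21 and 0.26. Control cells of the lowest band had a median of only 9271 UMIs, against 54089 in the library labelled TBL/RβKO, and that band is not matched in depth. The median number of detected genes in the lowest band was 3229 and 7291. A second hormone was found in 36.2, 82.2, 22.5 and 3.39% of control cells from the lowest band to the highest. In the library labelled TBL/RβKO these shares were 79.4, 79.4, 40.3 and 7.80%. The bands thus match cells on insulin share only, and the part of mixed hormones and depth in their ratios was not tested. In the highest band the median depths were 55376 and 71791 UMIs.

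Cox6a2 followed the insulin share within each library, at 16.1, 43.2, 92.8 and 139 CPM from the lowest to the highest band of the control, against 6.28, 8.07, 31.6 and 86.1 CPM in the library labelled TBL/RβKO. Its level was lower in the library labelled TBL/RβKO in each band, with ratios of -1.16, -2.16, -1.32 and -0.49, and in the highest band it no longer passed the threshold. Ndufc2 went the other way in every band, at 159, 234, 218 and 282 CPM against 390, 526, 566 and 506 CPM, with ratios of 1.49, 1.43, 1.61 and 1.04.

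Other members were compared within the same bands. Ndufs6 (1.53, 0.90, 0.94 and 0.64), Ndufv3 (1.71, 1.20, 1.09 and 0.68) and Uqcr10 (1.02, 0.80, 0.78 and 0.51) were past the threshold in all 4 bands. The interval of Uqcr10 in the highest band, 0.44 to 0.57, reached inside the threshold. Uqcrq, which did not pass in the whole class, was past it in each band (1.05, 0.81, 0.77 and 0.83). Sdhd (1.12, 0.50, 0.52 and 0.08), Ndufa12 (0.47, 0.58, 0.52 and 0.15) and Cox7a2l (0.97, 0.05, -0.25 and -0.17) were past it in some bands only. Cox8a and Cox6c were both below the median in the whole class. Within the bands Cox8a was at 0.06, -0.13, -0.04 and -0.09. Cox6c was at 0.10, -0.34, 0.04 and -0.03, so it was clearly below the median only in the band from 10 to 30%. The level of mt-Nd6 decreased with insulin in both libraries, from 103 to 34.3 CPM and from 39.9 to 17.8 CPM. Its ratio was -1.18, -0.83, -0.84 and -0.75, past the threshold in all 4 bands though not in the class as a whole. In the highest band its interval, -1.08 to -0.44, reached inside the threshold, with 88 UMIs in the library labelled TBL/RβKO. For mt-Co1 the ratios were 1.05, 1.05, 0.67 and 0.56.

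**Figure D4:**
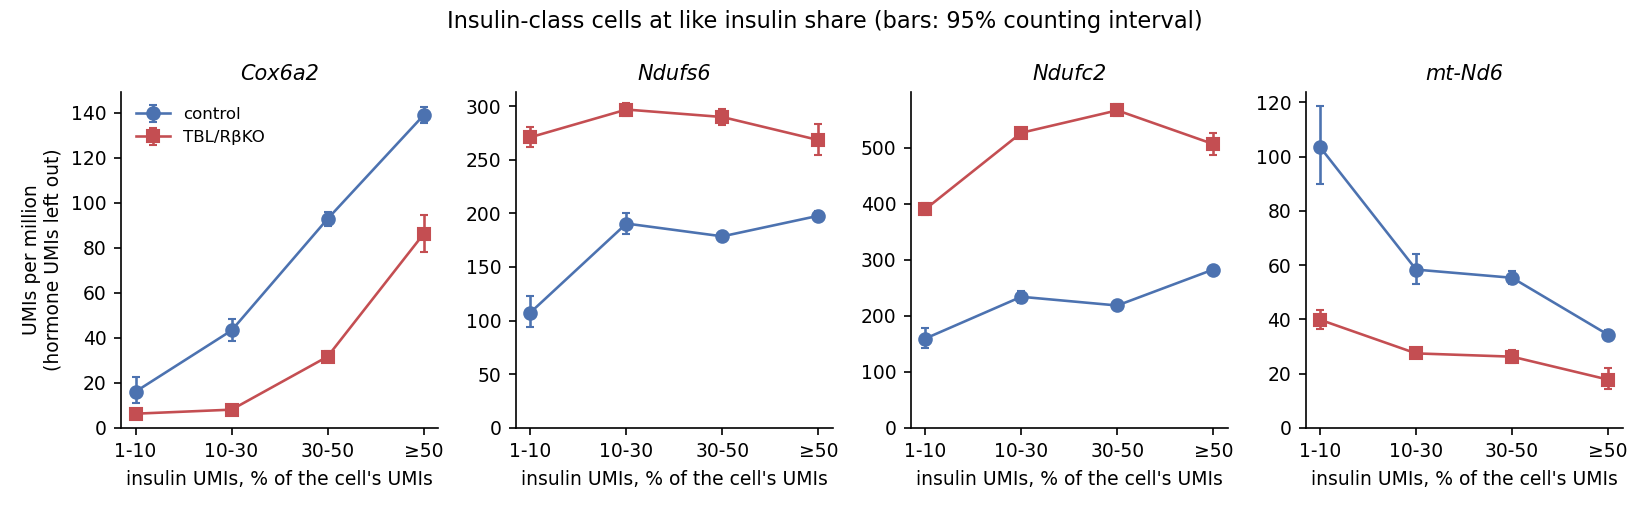
Levels in CPM of Cox6a2, Ndufs6, Ndufc2 and mt-Nd6 in insulin-class cells by band of the insulin share of UMIs, with 95% Poisson intervals, blue for the control and red for the library labelled TBL/RβKO. Cox6a2 increased with insulin in both libraries, from 16.1 to 139 CPM and from 6.28 to 86.1 CPM, while mt-Nd6 decreased and Ndufc2 was higher in the library labelled TBL/RβKO in every band.

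The glucagon class, which Cre was not meant to reach and in which 0.841% of cells labelled TBL/RβKO had a Cre UMI, showed a small even shift. Of 90 members tested, 1 rose where 2.66% of all genes did, and 0 fell where 0.861% of all genes did. The nuclear median was -0.17, with 71 of 77 nuclear members below the median of all genes and a range from -0.41 to 0.20. Among the lowest were the complex I subunit Ndufb3 (153 and 116 CPM, -0.41), Cox7a2l (266 and 204 CPM, -0.40), Uqcrfs1 (112 and 88.7 CPM, -0.35) and Atp5g2 (472 and 373 CPM, -0.35). Ribosomal protein genes lay below the median as well, with 88 of 93 cytosolic (median -0.30) and 64 of 77 mitochondrial ones (median -0.18), so the shift was not particular to the respiratory chain. The mtDNA members went the other way, 12 of 13 above the median of all genes, and mt-Nd3 rose from 649 to 961 CPM (0.56, 0.53 to 0.59). That call ended in 2 of 10 alternatives, at 0.49 with cells of fewer than 6000 genes and at 0.43 with cells under 5% mitochondrial UMIs. The next highest were mt-Atp8 (87.6 and 121 CPM, 0.45), mt-Nd1 (0.27), mt-Co3 (0.26) and mt-Nd2 (0.25). A second hormone was found in 59.6% of control and 20.3% of TBL/RβKO-labelled cells of this class.

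Differences in the somatostatin class were small. Of 90 members tested, 0 rose against 3.36% of all genes, and 1 fell against 2.52% of all genes. This was mt-Nd6, at 84.7 and 58.5 CPM (-0.52, -0.71 to -0.33), whose interval reaches inside the threshold and whose call ended in 5 of 10 alternatives. The nuclear median was -0.02 and the mtDNA median 0.07. Highest were mt-Nd3 (444 and 564 CPM, 0.36), Uqcrq (290 and 352 CPM, 0.29), the complex III core protein Uqcrc1 (58.6 and 68.2 CPM, 0.23), Ndufv3 (0.21) and the small ATP synthase subunit Atp5k (0.19). Also among the lowest were mt-Nd4l (-0.32), Ndufb3 (-0.27) and the complex I subunit Ndufa6 (-0.22).

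In the Ppy class 12 of 90 members rose, where 11.5% of all genes did, and 0 fell, where 8.21% of all genes did. As a share of the members, 13.3%, this was close to that of all genes. The 12 comprised 9 of the 13 mtDNA members and 3 of the 77 nuclear members, Ndufs6, Uqcrq (217 and 317 CPM, 0.58) and Ndufc2. The mtDNA median was 0.55 and the nuclear median -0.06. Markers of other cells moved with the library in this class, with sums of 6.96 and 96.8 CPM for stromal cells, 88.3 and 28.2 CPM for macrophages and 1631 and 1112 CPM for α-cells, and with Pyy at 150856 and 106196 CPM, and their part was not tested. Among the mtDNA members mt-Nd3 rose from 480 to 908 CPM (0.96, 0.90 to 1.01), mt-Co1 from 5433 to 8913 CPM (0.75), mt-Co2 from 4879 to 7424 CPM (0.64) and mt-Co3 from 5948 to 8824 CPM (0.61). The exception in direction was mt-Nd6, at 49.6 and 40.8 CPM (-0.25). The lowest nuclear members were Uqcrfs1 (165 and 115 CPM, -0.49), Atp5g2 (527 and 399 CPM, -0.36), Cox8a (722 and 575 CPM, -0.29), the complex III core protein Uqcrc2 (126 and 101 CPM, -0.29) and Ndufa6 (-0.29). With cells of fewer than 6000 genes the number that rose was 2 rather than 12, with each cell weighted equally it was 3, and without cells carrying a second hormone it was 5. More than 50% of the cells of this class carried a second hormone in both libraries (56.4% and 57.6%), and Tbl1x and Tbl1xr1 were again higher in the library labelled TBL/RβKO (159 and 464 CPM, 58.8 and 182 CPM).

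Within the control library, β-cells were set against α-cells to show which members marked the insulin class. Of 91 members tested, 25 were higher in the insulin class by 0.5 or more, where 18.4% of all genes were, and 0 were lower, where 16.8% of all genes were. The nuclear median was 0.34, with 72 of 78 above the median of all genes, and the mtDNA median 0.58. Mitochondrial ribosomal protein genes (median 0.32, 64 of 77 above) and assembly factors of the complexes (median 0.29) also stood above it, so this was not particular to the subunits. Electron carriers and coenzyme Q synthesis had a median of 0.15, carriers and uncouplers 0.00, and regulators of mitochondrial transcription and biogenesis -0.16. Cytosolic ribosomal protein genes stood on the other side with a median of -0.30. Cox6a2 led at 110 against 2.03 CPM (5.87, 5.45 to 6.32), and among the next highest were Uqcrq (563 against 276 CPM, 1.14), the complex IV core-associated subunit Cox5a (159 against 82.6 CPM, 1.05) and the complex I subunit Ndufb9 (362 against 202 CPM, 0.96). These control cells also enter the comparison between the libraries, in which Cox6a2 was the member that fell most. At the other end were Sdhd (71.6 against 91.0 CPM, -0.23), Atp5l (627 against 789 CPM, -0.22), Ndufa6 (232 against 291 CPM, -0.21), Atp5e (822 against 1013 CPM, -0.19) and Ndufs4 (160 against 195 CPM, -0.17), subunits of complexes II, V and I.

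In the library labelled TBL/RβKO the same comparison gave 51 of 91 members higher, where 22.4% of all genes were, and 1 lower, where 20.2% of all genes were. The nuclear median was 0.57, with 75 of 78 above the median of all genes, and the mtDNA median 0.42. Mitochondrial ribosomal protein genes had a median of 0.48, assembly factors 0.38 and cytosolic ribosomal protein genes 0.11. For electron carriers and coenzyme Q synthesis it was 0.16, for carriers and uncouplers 0.19 and for the regulators -0.08. Cox6a2 remained highest at 19.5 against 1.46 CPM (4.04), and Ndufc2 stood at 510 against 150 CPM (2.07). The member lower in the insulin class was mt-Nd6 (28.7 against 54.6 CPM, -0.63). The difference between the libraries in this comparison was not tested, since each has 1 library.

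Other genes of the pathway were described from lists named by function. Their counts stand beside the 11.2% of all genes tested that rose and the 7.42% that fell in the insulin class, and with so few genes a list none is read as particular to its list. Of 53 assembly factors, 47 were tested in the insulin class, 0 rose and 2 (4.26%) fell, Sdhaf1, which helps insert the iron-sulphur clusters of complex II (51.2 and 30.3 CPM, -0.56), and Uqcc5, an assembly factor of complex III (74.6 and 41.0 CPM, -0.67). Of 21 genes for electron carriers and coenzyme Q synthesis, 18 were tested, 0 rose and 1 (5.56%) fell, Gpd2, the mitochondrial glycerol-3-phosphate dehydrogenase that feeds electrons from cytosolic NADH to the chain (254 and 149 CPM, -0.57). Cytochrome c (Cycs) was at 99.3 and 99.0 CPM (0.19), Cyc1 at 77.7 and 71.5 CPM (0.07) and Ndufab1 at 190 and 176 CPM (0.08).

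Of 25 regulators of mitochondrial transcription and biogenesis, 14 were tested in the insulin class, 2 (14.3%) rose and 0 fell. Lrpprc, which stabilises mitochondrial messenger RNAs, rose from 88.1 to 145 CPM (0.91), and Pprc1, a co-activator related to PGC-1α, from 14.1 to 19.4 CPM (0.66). PGC-1α itself (Ppargc1a) was at 26.1 and 18.6 CPM (-0.30), Nrf1 at 58.8 and 43.7 CPM (-0.24) and the mtDNA packaging and transcription factor Tfam at 36.4 and 27.6 CPM (-0.21). Of 19 mitochondrial carriers and uncouplers, 15 were tested, 3 (20.0%) rose and 0 fell. Those that rose were the citrate carrier Slc25a1 (80.1 and 142 CPM, 1.01), the uncoupling protein Ucp2 (203 and 297 CPM, 0.74) and the outer membrane channel Vdac1 (138 and 185 CPM, 0.62). The medians of these 4 lists lay between -0.05 and 0.02, and those of the mitochondrial (76 tested) and cytosolic (92 tested) ribosomal protein genes at 0.01 and 0.10. In the glucagon class 15 of the 25 regulators were tested. Of these, 1 (6.67%) rose, where 2.66% of all genes did, and 0 fell, where 0.861% of all genes did. The 1 that rose was the orphan nuclear receptor Esrrg, a regulator of oxidative metabolism genes, at 144 and 310 CPM (1.10).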

How the data were processed

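Single-cell gene expression was measured in 2 libraries of dissociated mouse islets, 1 per group, with 150 islets of 4 mice pooled in each. The deposited UMI counts per gene and barcode were made by the authors with Cell Ranger 7.1.0 at standard parameters, which in that release count intronic reads, on GRCm39 per the submitters' processing notes, and only barcodes called as cells were deposited.

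Cells with more than 2500 detected genes and under 10% mt- UMIs were kept and classed by their most abundant hormone at 100 or more UMIs per 10000. No doublet caller was run. Alternatives left out cells with a second hormone or 6000 or more genes instead. The libraries shared 14 barcodes, 12 of them in kept cells. UMIs were summed per class and scaled to 1000000 UMIs not counting the 5 hormone genes (CPM). Genes averaging 10 CPM were tested, and a gene was called at 0.5 log2 or more from the median of all genes tested. With 1 library per group there was no test. Intervals are exact Poisson for levels, exact binomial (Clopper-Pearson) conditional on the summed UMIs for ratios, and cover 95% of counting error only. Depth per class was 22625866 to 89699565 UMIs other than hormones in the insulin and glucagon classes.

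The group of genes and the gene lists were chosen with earlier results of these data known, although the rule for members reads symbols only. Named members were the 5 highest and 5 lowest in each class and in the insulin over the glucagon class of the control, all mtDNA members in the insulin class, isoform pairs and the complex II subunits (1 member is not reported here by name, though it is counted); other members named were chosen after their values were seen. Gene positions came from GENCODE M39. Ratio and interval code was tested on simulated data. Analyses used Python 3.11.15, numpy 2.4.6, scipy 1.17.1, pandas 2.3.3 and matplotlib 3.10.9.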

Additional observations from a re-analysis of the deposited data

Results flagged for a closer look

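Both signals below came from cells that entered none of the comparisons, the 104 control cells and 426 cells of the library labelled TBL/RβKO in which no hormone reached the class cutoff, and they stood above the level in every hormone class. Cox4i2, the hypoxia-associated isoform of complex IV subunit 4, was at 20.8 CPM in such control cells and 5.73 CPM in the library labelled TBL/RβKO, against at most 0.309 CPM in any hormone class. By leading marker list it was at 32.2 CPM in 41 endothelial-led cells and 30.5 CPM in 14 stromal-led cells of the control, and at 24.0 CPM in 40 and 7.07 CPM in 87 such cells of the library labelled TBL/RβKO. Macrophage-led cells had 1.21 and 1.00 CPM.

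Ndufa4l2, a relative of the complex IV subunit Ndufa4 that is induced by low oxygen, was at 68.8 CPM in the control and 32.8 CPM in the library labelled TBL/RβKO, against at most 1.41 CPM in any hormone class. Endothelial-led cells had 93.3 and 52.4 CPM and stromal-led cells 122 and 82.5 CPM. Ductal-led cells had 153 CPM in the control (20 UMIs in 5 cells) against 1.53 CPM (2 UMIs in 31 cells), while macrophage-led cells had 0 UMIs in both libraries, which allows up to 4.45 and 3.71 CPM by the exact Poisson interval. The groups of cells without a hormone differed in make-up, with 62 B-cell-led cells in the library labelled TBL/RβKO and 0 in the control, so the values over all such cells are not a comparison of like cells.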

How the results depend on the processing

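No setting reversed a direction that was called, and scaling by all UMIs or by UMIs without mtDNA genes moved no median of the members beyond the members' median counting interval and no count by over 1.5 times, although Uqcr10 came to 0.499 in the insulin class when scaled by all UMIs. Values that moved are given here as medians of the relative log2 ratio or as numbers of members. With cells of fewer than 6000 genes, the insulin class gave a nuclear median of 0.14, an mtDNA median of 0.38 and 10 members higher, the glucagon class -0.24, 0.16 and 0 higher, the somatostatin class an mtDNA median of -0.16, the Ppy class an mtDNA median of 0.29 and 2 higher, and the insulin over the glucagon class nuclear medians of 0.28 (control) and 0.70 (library labelled TBL/RβKO). Without a limit on mtDNA UMIs the mtDNA medians were 0.056 (insulin), 0.27 (glucagon), 0.22 (somatostatin, with 1 higher and 0 lower) and 0.62 (Ppy, with 1 lower). With cells under 5% they were 0.035 (insulin), 0.13 (glucagon, with 0 higher) and 0.31 (Ppy, with 2 higher), and 0 were lower in the somatostatin class. A hormone cutoff of 300 per 10000 gave an mtDNA median of 0.080 in the insulin class and 0 lower in the somatostatin class. Without cells carrying a second hormone the mtDNA medians were 0.18 (insulin), 0.31 (glucagon, with 2 higher and 1 lower), 0.00 (somatostatin, -0.0029 before rounding, with 3 higher and 0 lower) and 0.45 (Ppy, with 5 higher and 1 lower), the nuclear median was 0.046 in the Ppy class, and that of the insulin over the glucagon class in the library labelled TBL/RβKO was 0.67. A filter at 50 CPM gave medians of -0.019 (nuclear) and 0.053 (mtDNA) in the insulin class, an mtDNA median of 0.21 in the glucagon class and 1 member lower in the Ppy class. With no filter the insulin class gave -0.021, 0.035 and 4 lower, the glucagon class 2 higher and 3 lower, the somatostatin class 3 lower and the Ppy class 5 lower, where fewer UMIs stand behind each added member. With each cell weighted equally the insulin class gave 0.072 and 0.12, the glucagon class -0.25 and 0.18, and the mtDNA medians were -0.054 (somatostatin) and 0.36 (Ppy, with 3 higher). Insulin-class cells with at least 30% insulin gave 0.21, 0.18 and 10 higher. The cause of these shifts was not tested. The other 135 medians and counts recomputed stayed within those limits. No paired analysis was possible because each group has 1 library, and no replicate could be left out.

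Counting error did not limit the insulin class, whose counting intervals were narrow beside the differences between settings. Depth per cell was unequal there, with a median of 53346 and 67897 UMIs and 49.5% and 76.7% of cells at 6000 or more genes. Its part was not tested. The limits lie in 1 library per group, in unequal depth per cell, in rebuilt classes that mix hormones, and in the mtDNA filter.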
